A study of Mus musculus with 32 samples.

Results

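The genes compared here are those of the inner cell mass (ICM) and of the whole control blastocyst of the mouse. The ICM is the clump of cells inside the blastocyst. It was isolated by immunosurgery, which lyses the outer cell layer with antibody and complement, from blastocysts of superovulated C57BL/6N females and DBA/2N sires. The control blastocysts carried the same strain cross, had been injected with siRNA as controls of a Gata4 knockdown and were cultured in CZB medium with glutamine. The labels give neither the control siRNA nor the age of the embryos, and they name no injection for the ICM. RNA was sequenced from polyA RNA after a slightly modified Smart-seq2 protocol. The 3 labelled ICM samples stand behind 1 pooled column, while the control blastocysts have 3 libraries with a column each, called control 1, 2 and 3 below.

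Values are FPKM, read fragments corrected for transcript length and library total, scaled so that the 4 columns have the same median. Of 22514 genes listed in both tables, 5958 reached 5 scaled FPKM in the ICM or in the mean of the controls. Of these, 738 had a near-identical copy elsewhere in the genome (at least 95% identity over at least 50% of the coding sequence) and were set aside, which left 5220 genes. Genes with a looser match of at least 85% identity were kept, and of those named below they include Pou5f1, Lefty2, Krt18, Id2, Mcm4, Uqcrq, Cdc20, Ifitm3, Crygd and Actb, whose values are less certain. The difference of a gene is its ICM value minus the mean of the controls on the scale log2(scaled FPKM + 1), which understates the change of low genes. A gene is called higher or lower where the difference was at least 1 in size and the ICM value lay outside the range of the 3 controls. There is 1 ICM value per gene and the tables were normalized separately, so no p-value is given and the ICM values have no replicate error.

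By the blastocyst stage the mouse embryo holds 3 cell lineages. The trophectoderm is the outer epithelium that pumps fluid into the cavity and later forms placenta. Its identity rests on Cdx2, Gata3 and Eomes, downstream of the TEAD factor Tead4 and its co-activator YAP, and on Tfap2c. The ICM sorts into the epiblast, which expresses Nanog, Sox2 and Pou5f1 and forms the embryo itself, and the primitive endoderm, which expresses Gata6, then Sox17 and Gata4, under FGF4 signalling and lays down a basement membrane. A whole blastocyst contains its own ICM, so the comparison sets a part against the whole. In bulk RNA, fewer cells of a type and less RNA per cell cannot be told apart.

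In the ICM 1049 of the 5220 genes were higher (20.1%) and 1386 were lower (26.6%), and the median difference over all of them was -0.08. These shares are the background for the counts of every gene list below. Without scaling the split was 2021 higher and 828 lower and the median difference 0.59, so each difference is relative to the scaled median. Genes called lower reached larger sizes: 603 of them differed by at least 2 and 60 by at least 4, against 236 and 13 of the genes called higher. The controls themselves lay at least 1 apart, from lowest to highest library, in 1081 genes (20.7%). Spearman's rho across these genes was 0.478 to 0.639 between the ICM and single controls and 0.872 to 0.917 among controls, given as a description since genes are not independent. There were 221 genes with a difference from 0.9 to 1 in size and 247 from 1 to 1.1. In level, 456 compared genes had 5 to 6 scaled FPKM and 559 genes with 4 to 5 were not compared.

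**Figure D1:**
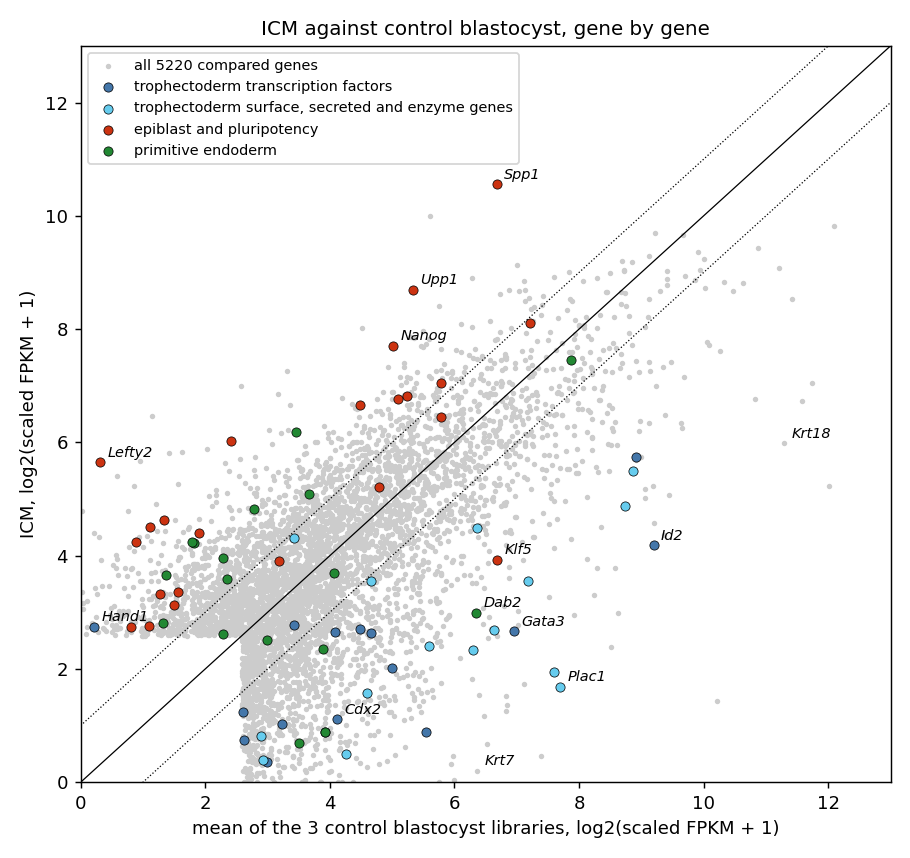
Each grey point is 1 of 5220 genes, with the mean of the 3 control blastocyst libraries on the x axis and the ICM on the y axis, both as log2(scaled FPKM + 1); the solid line marks equal values and the dotted lines a difference of 1. Most trophectoderm genes lie below the lines, with Hand1 above them, most epiblast genes lie above, with Klf5 below, and primitive endoderm genes lie on both sides.

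How far the tables themselves differ was read at the 8-cell stage, which both kinds of table hold. The 8-cell column of the stage table (2 labelled samples) was set against the 4 control libraries of the 8-cell knockdown with the same steps. There 617 of 4968 genes were higher in the stage table (12.4%) and 939 lower (18.9%), with a median difference of -0.15. Across the 4015 genes compared at both stages, the ICM difference and the 8-cell difference had a Spearman's rho of 0.58, over points that share the stage table and a knockdown table. Of the 762 genes called higher in the ICM and also compared at the 8-cell stage, 208 were higher there too and 26 lower. Of 850 such genes called lower in the ICM, 408 were lower there too and 11 higher. The 8-cell controls also differ from the stage column in siRNA injection, and their ribosomal RNA precursor, Rn45s, stood at 24968 to 29618 FPKM against 0 in the stage 8-cell column. In controls 1 and 3 of the blastocyst it stood at 37959 and 38111 FPKM, and it was listed at 0 in control 2 and in the ICM. Table, injection and culture cannot be told apart from the difference between ICM and blastocyst. The 8-cell difference is therefore given for the compared genes described below where it reached 1 in size. Fgf4, Prdm14, Hk2, Ube2l6 and Ifitm3 were under 5 scaled FPKM at the 8-cell stage in both tables, so their 8-cell differences are uncertain.

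**Figure D2:**
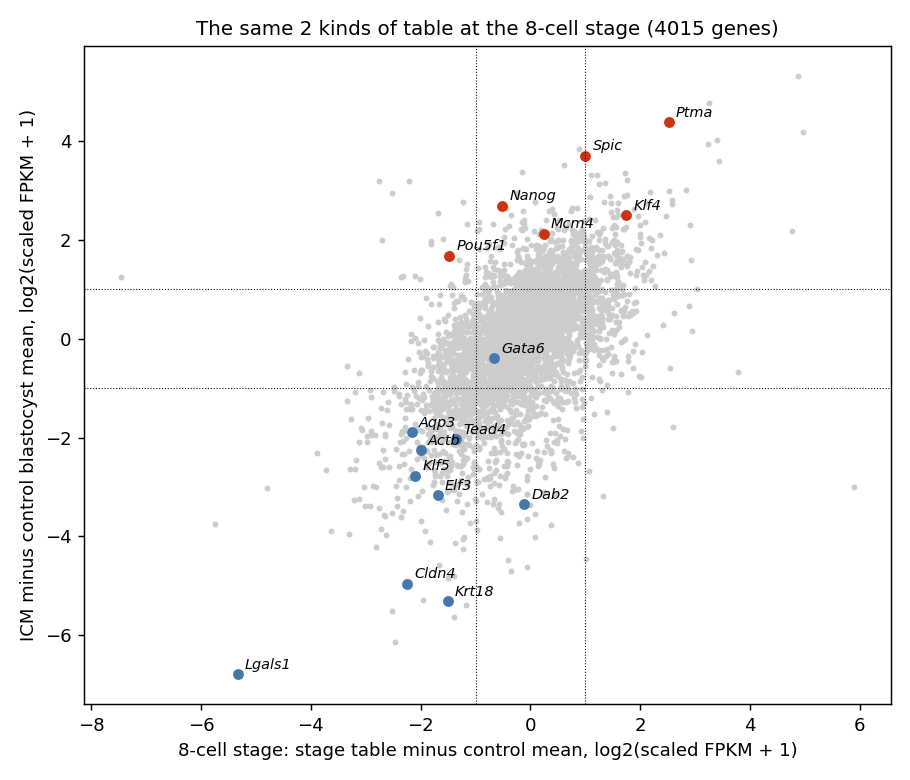
Each grey point is 1 of 4015 genes compared at both stages, with the difference between the tables at the 8-cell stage on the x axis and the difference between ICM and control blastocyst on the y axis, both on the scale log2(scaled FPKM + 1); dotted lines mark 1 and -1. Nanog, Mcm4 and Dab2 lie near 0 on the x axis and far from 0 on the y axis, while Lgals1, Ptma and Actb lie far from 0 on both.

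The label of the ICM was first checked against markers of the lineages. The summed level of 16 trophectoderm markers was 346 scaled FPKM in the ICM and 5969, 5315 and 7056 in controls 1 to 3. Of the 16, 14 were lower in the ICM, the other 2 had near-identical copies, and Krt19 was listed at 0. The genes with copies were not called but stayed in the sums, among them Krt8 with 45.3 in the ICM and 853, 600 and 860 in the controls. The summed level of 8 epiblast markers was 674 in the ICM and 47.5, 69 and 31.5 in the controls, with 7 of 8 higher. The other marker, Tdgf1, has copies and was not called. It alone gave 407 of the ICM sum, against 13.9, 10.4 and 4.62 in the controls. The sum of 12 primitive endoderm markers was below the controls, at 86.9 in the ICM and 146, 122 and 174 in the controls, with 1 marker higher and 1 lower. The lower marker, Dab2, alone had 6.96 in the ICM and 79.9, 82.5 and 78.8 in the controls. The low sum thus rests largely on Dab2 and does not show the primitive endoderm markers lower as a group. Markers of cumulus and granulosa cells, the maternal cells that surround an oocyte, summed to 0.184 in the ICM and 0 in each control. The part that remaining trophectoderm had in the ICM values was not tested.

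The transcription factors of the trophectoderm were lower in the ICM in 13 of 15 compared genes, with 1 higher and a median difference of -2.20. Cdx2, which sets trophectoderm fate, had 1.17 scaled FPKM in the ICM and 14.3, 17.6 and 17.2 in controls 1 to 3, a difference of -3.00. Gata3 had 5.37 in the ICM against 108, 109 and 153, and Gata2, which acts with it in trophoblast genes, 0.849 against 24.1, 31.2 and 81.3. The ICM lay far below every control for these factors, and for Gata2 control 3 stood above the other two.

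Id2, an inhibitor of basic helix-loop-helix factors, had the largest difference of the list at -5.01. Its level was 17.2 in the ICM and 570, 701 and 491 in the controls. Eomes, a T-box factor of trophoblast stem cells, was lower at 3.03 against 14.5, 32.7 and 45.7. The AP-2 factors were lower too: Tfap2a had 0.284 against 4.01, 6.68 and 10.2, and Tfap2c 5.52 against 11.2, 23.3 and 30. In all 4 of these genes the ICM lay below the lowest control.

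Tead4 was 5.2 in the ICM and 26.8, 25.5 and 20.6 in the controls, a difference of -2.03, but its 8-cell difference was -1.36. The epithelial factor Elf3 was 52.6 against 392, 372 and 675 with an 8-cell difference of -1.69. Grhl2, a grainyhead factor, did not reach the difference of 1, with 5.82 in the ICM and 8.74 to 10.4 in the controls. Hand1, a helix-loop-helix factor of trophoblast giant cells and of extraembryonic mesoderm, was the exception to the list: it had 5.72 in the ICM, was listed at 0 in controls 1 and 3 and had 0.496 in control 2. Of the 15 factors, 10 were under 5 scaled FPKM at the 8-cell stage in both tables, so the tables could not be compared for them, and all 10 were lower in the ICM. A factor under 5 in the ICM was compared only through its level in the controls, so its direction was fixed by the filter. With no filter on level 15 of the 20 factors of the list were lower and 1 higher, with a median of -1.95.

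Surface, secreted and enzyme genes of the trophectoderm were lower in 15 of 16 compared genes, with a median difference of -3.28. Plac1, a placental surface protein, had 2.22 in the ICM and 172, 141 and 304 in the controls. Tinagl1, a secreted matrix protein, had 2.85 against 102, 75.2 and 398, and the tetraspanin Tspan8 28.3 against 307, 302 and 663. For all 3 the ICM was more than 3 log2 units below the mean of the controls, and control 3 was the highest library.

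Wnt7b, a secreted Wnt ligand, was 0.413 in the ICM and 16.4 to 20.3 in the controls. Ptges, which makes prostaglandin E2, was 4.31 against 39.4 to 55.2, and Gm2a, the activator protein of ganglioside breakdown, 44 against 382 to 550. The RNA-binding protein Igf2bp3 was the member that was not lower, at 18.8 against 6.92 to 12.2, a difference of 0.88. At the 8-cell stage 14 of the 16 genes were under 5 scaled FPKM in both tables.

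Genes of the epithelial cytoskeleton and its junctions were lower as well. Keratins 7, 18 and 19, the intermediate filament proteins of simple epithelia, were among the 15 largest decreases. Krt18 had 62.2 scaled FPKM in the ICM and 2543, 2076 and 2887 in the controls, with an 8-cell difference of -1.51 against -5.31 here. Krt7 had 0.15 against 49.7, 57.3 and 138. Krt19 was listed at 0 in the ICM and at 8.07, 52.2 and 99.3 in the controls, so it varied widely between control libraries. In the list of keratins and desmosome genes 7 of 8 compared genes were lower (median -2.90), among them Dsp, desmoplakin, with 0.451 against 7 to 9.71. Dsg2, desmoglein 2, was 5.98 against 5.93 to 7.13 and lay within the range of the controls.

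Of 22 genes of tight and adherens junctions and cell polarity, 17 were lower and 2 higher (median -1.97). Claudins, which seal the tight junction, were among the lower genes: Cldn4 had 6.73 against 195, 111 and 412, Cldn3 5.82 against 81.8, 71.5 and 234, and Cldn7 52.5 against 547, 322 and 666. The 8-cell differences of Cldn4 and Cldn7 were -2.24 and -1.61. That of Cldn3 was -0.40, but Cldn3 was at or under 0.317 scaled FPKM there, so the tables could not be compared for it. Tjp3, a scaffold of the tight junction, was 1.46 in the ICM and 29.1 to 50.8 in the controls, and the apical polarity protein Pard6b 1.4 against 12 to 19.6. The adherens junction gene Cdh1, E-cadherin, had 30.5 in the ICM and 64.8, 30 and 78 in the controls, so that control 2 was as low as the ICM, and its partner Ctnnb1, beta-catenin, had 50.7 against 39.3, 45.5 and 52 with an 8-cell difference of -1.34. The 2 higher genes were Ezr, the membrane-to-actin linker ezrin, at 35.4 against 13.8 to 18.3, and the atypical protein kinase C gene Prkci at 10.7 against 3.16 to 5.28.

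Transport genes of the blastocoel, the fluid-filled cavity, were lower in 6 of 7 compared genes (median -1.80). The sodium pump subunit gene Atp1b1 had 14.1 in the ICM, with 37.9 to 52.1 in the controls. The water and glycerol channel Aqp3 was 28.9 against 75.8, 51.5 and 201, but its 8-cell difference of -2.16 was as large as its difference of -1.89 here. Aqp8, another aquaporin, was the exception, at 71.8 in the ICM and 8.06, 3.28 and 18.8 in the controls. It stands on the primitive endoderm list too, and is counted there among the higher genes.

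Epiblast and pluripotency genes were higher in the ICM in 18 of 23 compared genes, with 1 lower and a median difference of 1.94. Nanog had 208 scaled FPKM in the ICM and 21.7, 48.8 and 23.8 in the controls, a difference of 2.69. Sox2 had 5.8 against 1.78, 1.07 and 0.594, and Pou5f1, which encodes OCT4, 108 against 36.8, 38.4 and 23.7. The ICM was above every control for all 3 factors, and at the 8-cell stage Pou5f1 differed in the opposite direction, at -1.48.

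Secreted factors and enzymes of the epiblast were among the largest differences of the list. Spp1, osteopontin, was the most abundant compared gene of the list at 1508 in the ICM, with 146, 100 and 58.8 in the controls. Lefty2, a secreted inhibitor of Nodal, had 49.2 against 0.6, 0 and 0.129, which was the largest increase among compared genes other than unnamed loci. Gdf3, a ligand of the TGF-beta family, was 63.9 against 4.57, 5.81 and 2.69. Bmp4, a bone morphogenetic protein, was 21.8 against 2.86, 0.494 and 0.123, and Fgf4, the ligand that drives primitive endoderm, 5.7 against 0.663, 1.34 and 0.234 with an 8-cell difference of 1.40. Upp1, uridine phosphorylase, had 413 in the ICM and 53.7, 37.9 and 26.3 in the controls. At the 8-cell stage Spp1, Lefty2, Gdf3, Bmp4 and Upp1 were at or under 1.29 scaled FPKM in both tables, so the tables could not be compared for them.

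Several naive pluripotency factors were higher with a table difference of the same sign. Klf4 had 20.2 against 3.8, 3.14 and 1.26, and the orphan receptor Esrrb 9.27 against 3.02, 2.32 and 0.525, with 8-cell differences of 1.74 and 1.24. Prdm14 was 9.03 against 0.91 to 1.96 with an 8-cell difference of 1.64, from levels under 5 scaled FPKM in both tables. Zfp42, known as REX1, was 112 against 31.1 to 47.4 with an 8-cell difference of -0.06. Klf5 was the 1 member called lower, at 14.2 in the ICM and 68, 110 and 129 in the controls, and its 8-cell difference was -2.10. The factors Tfcp2l1, Sall4 and Tbx3 and the F-box protein gene Fbxo15 had differences of 0.42, 0.67, 0.71 and 0.90 and were not called, and Tbx3 had an 8-cell difference of -1.67. A further 5 members, Tdgf1, Dppa2, Dppa3, Dppa5a and Tdh, have near-identical copies and were not counted.

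**Figure D3:**
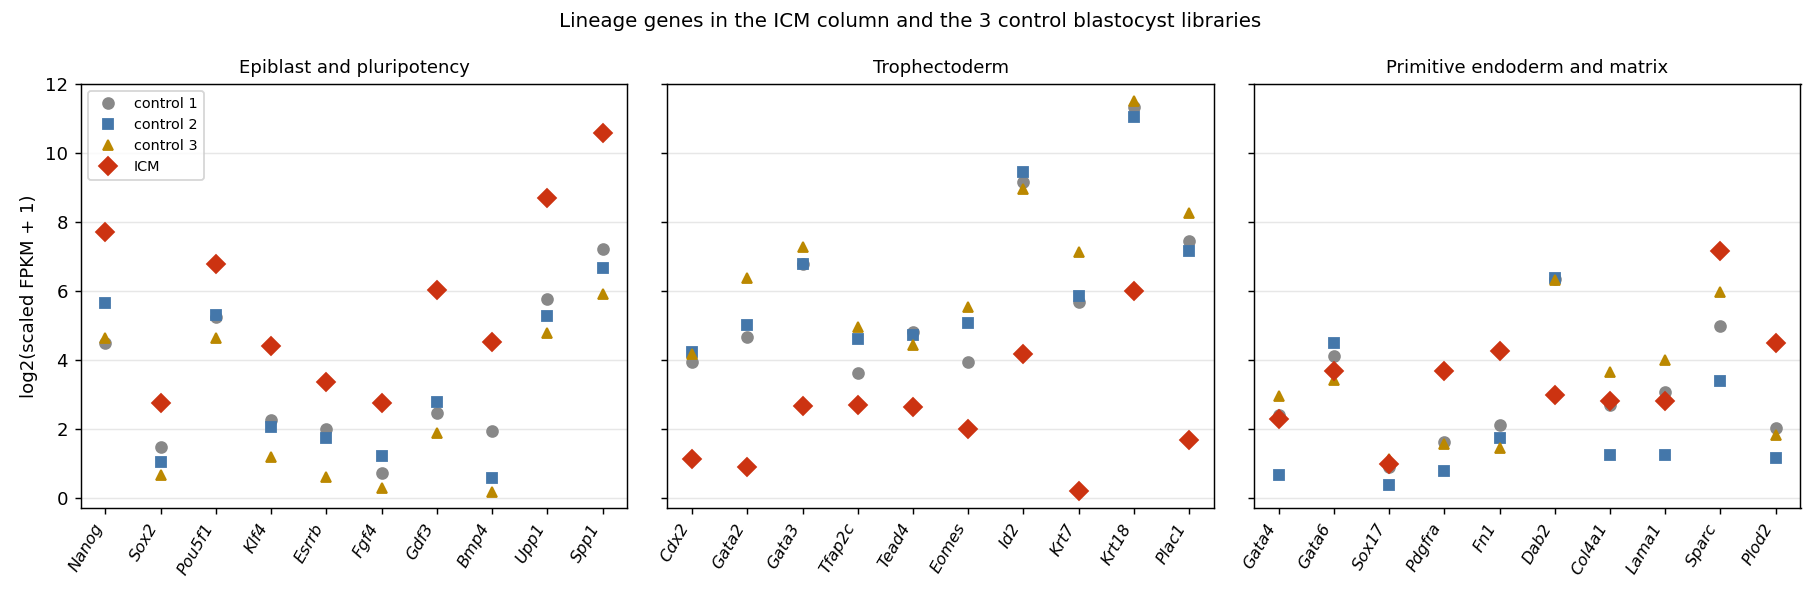
Levels of 30 lineage genes on the y axis, log2(scaled FPKM + 1), in the ICM column (red diamonds) and the 3 control blastocyst libraries (grey, blue and ochre), in 3 panels by lineage. The ICM lies above all controls for the 10 epiblast genes and below them for the 10 trophectoderm genes. In the third panel Gata4, Gata6, Sox17, Col4a1 and Lama1 lie within the range of the controls, Pdgfra, Fn1, Sparc and Plod2 above it and Dab2 below it.

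Stretches before the start of transcription are shown for a trophectoderm factor and a keratin that were lower in the ICM and for an epiblast factor and an epiblast enzyme that were higher. They are the 250 bases upstream of the RefSeq start in GRCm38.p6, a later build than the one behind the FPKM values, at chr15:102027966-102028215 (Krt18, + strand), chr5:147307250-147307499 (Cdx2, - strand), chr6:122707239-122707488 (Nanog, + strand) and chr11:9117758-9118007 (Upp1, + strand). Capitals mark exact matches, on either strand, to GGAATG (the motif of TEAD factors), to AGATAA and its variant beginning with T, TGATAA (both motifs of GATA factors), to ATGCAAAT (the octamer bound by POU factors such as OCT4) and to a composite SOX and POU element, a SOX site next to an octamer-like site. The composite was added to the search after the values were known, and an octamer match can overlap it.
Krt18: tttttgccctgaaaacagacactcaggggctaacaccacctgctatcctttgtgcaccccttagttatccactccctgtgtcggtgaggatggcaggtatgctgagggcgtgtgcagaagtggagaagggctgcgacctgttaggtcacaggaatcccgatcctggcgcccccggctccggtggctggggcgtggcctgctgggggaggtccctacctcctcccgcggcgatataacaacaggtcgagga
Cdx2: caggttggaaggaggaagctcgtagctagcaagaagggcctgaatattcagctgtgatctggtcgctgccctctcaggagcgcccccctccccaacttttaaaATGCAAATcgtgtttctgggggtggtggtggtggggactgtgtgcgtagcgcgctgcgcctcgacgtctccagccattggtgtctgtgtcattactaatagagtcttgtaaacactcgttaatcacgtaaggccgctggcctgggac
Nanog: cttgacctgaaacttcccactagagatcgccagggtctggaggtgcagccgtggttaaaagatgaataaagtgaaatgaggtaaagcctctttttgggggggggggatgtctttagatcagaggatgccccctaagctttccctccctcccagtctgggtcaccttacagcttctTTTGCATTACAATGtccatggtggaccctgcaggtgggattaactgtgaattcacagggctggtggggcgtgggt
Upp1: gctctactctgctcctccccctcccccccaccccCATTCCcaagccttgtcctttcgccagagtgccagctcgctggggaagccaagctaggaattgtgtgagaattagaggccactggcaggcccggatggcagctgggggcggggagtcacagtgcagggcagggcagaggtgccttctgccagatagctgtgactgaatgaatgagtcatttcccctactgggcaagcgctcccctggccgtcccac
Nanog held the composite, read on the opposite strand, from 75 bases before its start, and it was the only 1 of 27025 promoters (1 per gene, the first listed) to hold it. Because this long string was chosen after the values were known, neither the match in Nanog nor its absence elsewhere is independent support. The Cdx2 stretch held the octamer from 147 bases before the start, the Upp1 stretch held GGAATG on the opposite strand from 216 bases before it, and the Krt18 stretch held none of the 4.

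Over whole groups the shares of promoters with a motif were as follows. A promoter was listed for 818 of the 1049 genes higher in the ICM, 1131 of the 1386 lower and 4214 of the 5220 compared. GGAATG was found in 9.54% of the promoters of higher genes, 12.8% of lower genes, 10.6% of all compared genes and 12.6% of all promoters. A GATA motif was found in 8.68%, 8.75% and 8.85% of the first 3 groups and in 17% of all promoters. The octamer was found in 0.978%, 1.41% and 1.04%, and in 1.61% of all promoters. A match in these windows is a run of letters, not a measured binding site.

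Primitive endoderm genes went both ways: of 17 compared genes 9 were higher and 4 lower, with a median difference of 1.25. The other 18 of the 35 genes were below the level compared. With no filter on level 10 of the 35 were higher and 5 lower, with a median of 0.11, where 7.09% of all genes were higher and 9.58% lower. Genes low in the controls, such as Pdgfra below, were compared only through the ICM, so the filter fixed their direction. Among the transcription factors that define the lineage, Gata6 had 11.9 in the ICM and 16.4, 21.3 and 9.73 in the controls, within their range. Gata4 and Sox17 were below the level compared. Gata4, the gene the knockdown of the series targets, had 3.93 in the ICM and 4.32, 0.587 and 6.77 in the controls, and Sox17 had 0.974 against 0.849, 0.313 and 1.18. None of the 3 factors stood outside the range of the controls, and control 2 was the lowest library for Gata4 and Sox17.

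Among the higher genes were a receptor and secreted proteins. Pdgfra, the receptor by which primitive endoderm cells are commonly recognised, had 11.7 in the ICM against 2.07, 0.725 and 1.95. Fn1, fibronectin, was 18 against 3.31, 2.34 and 1.73, and the Wnt inhibitor Dkk1 17.7 against 5.15, 0.141 and 2.34. Cited1, a transcriptional co-activator, had 14.5 against 4.21, 5.99 and 1.38. For these 4 genes the ICM lay above each control. The 8-cell difference of Cited1 was 0.35. Pdgfra, Fn1 and Dkk1 were at or under 0.727 scaled FPKM at the 8-cell stage in both tables, so the tables could not be compared for them.

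The 4 lower genes were Dab2, Lrp2, Ctsh and Fgfr2. Dab2, an adaptor of endocytosis, was 6.96 in the ICM and 79.9, 82.5 and 78.8 in the controls, a difference of -3.35 with an 8-cell difference of -0.11. Lrp2, the endocytic receptor megalin, was 0.85 against 17, 13 and 12.6, and Fgfr2, a receptor of FGF4, 4.13 against 12.3, 11.9 and 17.6. Dab2, Lrp2 and Fgfr2 are also known from trophectoderm, and Lrp2 stands on the trophectoderm list too. The count depended on the control library: set against control 3 alone the list had 8 genes higher, 8 lower and a median difference of 0.26. Its median was 0.53 without control 2 and 0.80 without control 1, with 9 genes higher in both.

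Of 14 compared genes of basement membrane and collagen processing 4 were higher and 1 lower, with a median of 0.30. The lower gene was the laminin chain Lama5, at 2.41 against 13.9, 4.74 and 11.4. The chains typical of primitive endoderm lay within the range of the controls: Col4a1 had 6.02 in the ICM and 5.45, 1.36 and 11.6 in the controls, and Lama1 6.06 against 7.35, 1.38 and 14.9. The 4 higher genes were Plod2, P4ha1, Plod1 and Sparc. Plod2, a lysyl hydroxylase, had 21.3 against 3.05, 1.24 and 2.56, and P4ha1, a prolyl hydroxylase subunit, 17.1 against 1.87, 1.04 and 2.76. Sparc, a collagen-binding matrix protein, was 141 against 30.4, 9.46 and 62. Other collagen-modifying enzymes were not called: P4ha2, a further prolyl hydroxylase subunit, had 13.9 against 15.4, 10.8 and 26.4, and P4hb 137 against 85.4, 44.8 and 132. Control 2 was the lowest library for Col4a1, Lama1, Plod2, P4ha1 and Sparc, and control 3 the highest for Col4a1, Lama1 and Sparc.

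Signalling genes were read by role. Among the FGF genes the ligand Fgf4 was higher and the receptor Fgfr2 lower, as above, and Fgfr1 lay at 5.14 against 2.87 to 4.8 with a difference of 0.34. The feedback inhibitor Spry2 was higher at 117 against 37.1, 36.5 and 18.8, and the ERK phosphatase Dusp6 was lower at 6.86 against 18, 27.3 and 33.6, where the 8-cell difference was 2.59 in the opposite direction. Of 8 compared genes of this list 2 were higher and 3 lower, with a median of 0.05 that was -0.33 with upper quartile scaling. In the Nodal, activin and BMP list 3 of 8 were higher, Lefty2, Bmp4 and the BMP target Id3 (99.6 against 48, 32 and 30.2, 8-cell difference -1.17), and 5 were lower, among them Id2, the inhibitory SMAD gene Smad7 (0.511 against 3.81, 4.91 and 7.1) and the activin receptor Acvr2b (1.08 against 7.68, 5.06 and 10.1). Its median of -1.56 had no stable sign, at 0.60 without scaling, 0.07 with no filter on level and 0.03 at a level of at least 10 FPKM.

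In the LIF and STAT3 list the ligand and its receptor went opposite ways. Lif had 0.118 in the ICM and 2.61, 3.05 and 12.6 in the controls, while Lifr had 5.13 against 1.05, 0.384 and 2.71. Stat3 itself was 11.4 against 21.6, 29.9 and 24.5, and Socs3, its feedback inhibitor, 6.2 against 1.33, 1.19 and 3.36 with an 8-cell difference of -2.11. Ctgf, a target of YAP, was 12.7 in the ICM and at most 1 in the controls, whereas Amotl2, another target, was 2.77 against 24.8, 8.73 and 18 with an 8-cell difference of -1.03. Of the 9 compared Hippo genes 2 were higher and 3 lower, where 20.1% of all compared genes were higher and 26.6% lower.

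Of 23 DNA replication genes 8 were higher and none lower (median 0.79; 8-cell median 0.11), and 21 had a positive difference. Mcm4, a subunit of the replicative helicase, had 71.8 in the ICM and 20.2, 13.8 and 12.9 in the controls, Mcm6 123 against 52, 31.8 and 35.4, and the primase subunit Prim1 63.3 against 23.2, 23.6 and 15.1. In all 3 genes the ICM lay above the highest control. Of 25 mitosis genes 2 were higher and 2 lower (median 0.08, and -0.04 with upper quartile scaling), with the separase inhibitor Pttg1 at 414 against 152, 152 and 47.2 and the anaphase activator Cdc20 at 53 against 156, 123 and 110.

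Of 27 genes of oxidative phosphorylation 11 were lower and 2 higher (median -0.76), and without scaling 4 were lower and 3 higher (median -0.18). Uqcrq, a small subunit of complex III, had 210 against 1405, 981 and 864, and Cox8a, of complex IV, 691 against 2762, 1313 and 1573, with 8-cell differences of -1.72 and -1.21. The 8-cell median of the same 27 genes was -0.48, and when each gene's 8-cell difference was subtracted their median was -0.11, with 2 lower and 3 higher. In glycolysis the hexokinase gene Hk2 was lower, at 4.01 against 26.8, 27.3 and 31.3 with an 8-cell difference of -1.0, and the lactate dehydrogenase gene Ldha higher, at 63.7 against 17.8, 2.45 and 25.7, with an 8-cell difference of -2.71.

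Among p53 and cell death genes 6 of 14 were lower and 3 higher. Trp53, which encodes p53, was 66.8 in the ICM and 21.8, 13.5 and 14.6 in the controls, and Pmaip1, the BH3-only protein NOXA, 16.8 against 1.19, 0.53 and 1.3. The p53 targets Cdkn1a and Phlda3 were lower, at 1.75 against 17.9 to 40.1 and 1.84 against 22.1 to 49, but their 8-cell differences were -2.33 and -2.73. Of 15 immediate early and stress genes 7 were lower and 1 higher (median -0.51, and 0.12 without scaling; 8-cell median over 9 of them -0.48). The higher gene was Hspa5, the endoplasmic reticulum chaperone BiP, at 273 against 85.2, 43.3 and 73.9.

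Of 7 compared genes of DNA methylation 2 were higher and 2 lower (median -0.11). The methyltransferase gene Dnmt3b and its cofactor Dnmt3l were lower, at 7.22 against 15 to 17.9 and 26.9 against 49.6 to 75.8. The dioxygenase gene Tet1, which oxidises methylcytosine, was higher at 11.6 against 1.71, 2.57 and 1.33, while Tet2, of the same family, had 7.12 against 4.95, 7.46 and 5.83. The other higher gene, Zfp57, a zinc finger protein that protects methylation at imprinted loci, had 41.4 against 12.1, 6.75 and 3.78 with an 8-cell difference of 2.90. Of 25 lysosomal genes 3 were higher and 7 lower, where 20.1% of all compared genes were higher and 26.6% lower. Cathepsin genes Ctsl and Ctsb were higher (Ctsl 225 against 42.9, 48.6 and 49.5), and Tfeb, the factor that drives lysosomal genes, was lower at 1.86 against 26.6 to 34.9 with an 8-cell difference of -1.24.

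**Figure D4:**
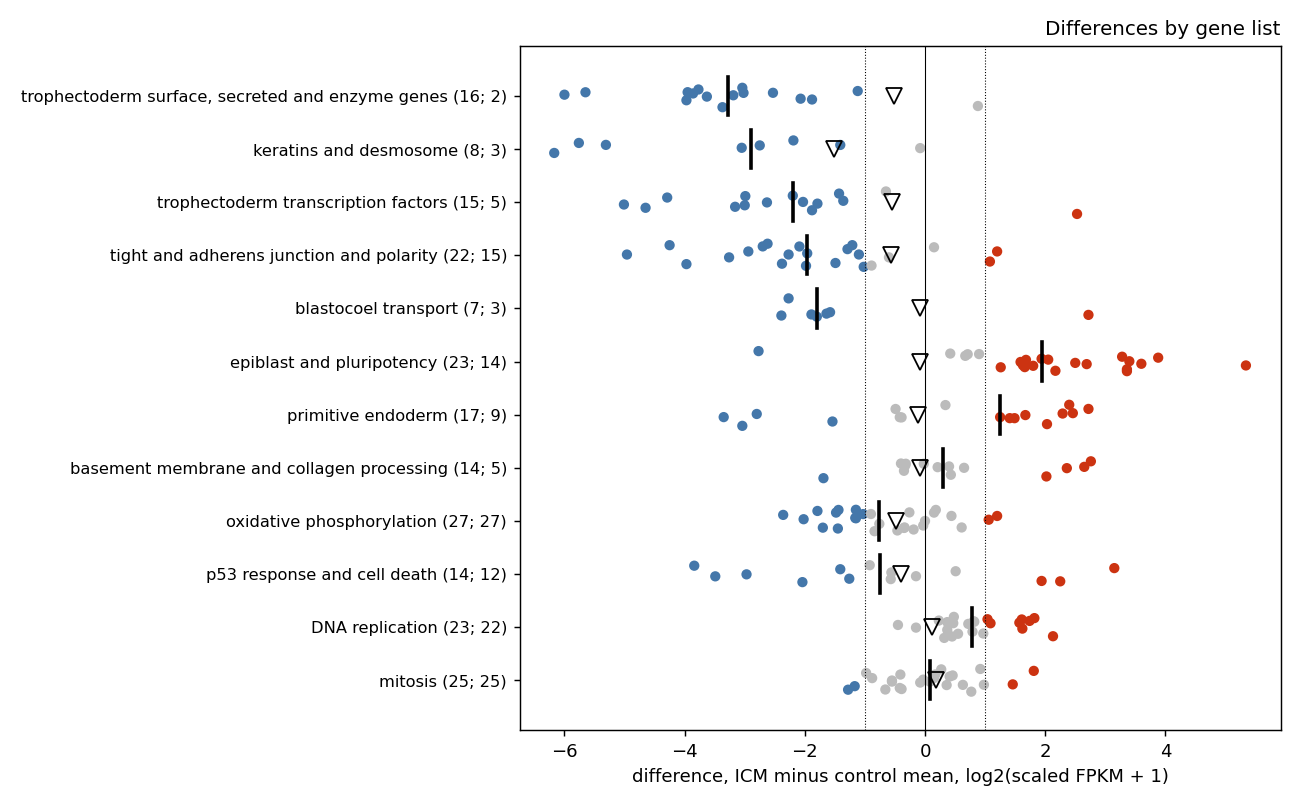
Each point is 1 compared gene of a list, at its difference between ICM and the mean of the controls on the x axis, log2(scaled FPKM + 1); red points were called higher, blue lower and grey neither, with a black bar at the list's median and dotted lines at 1 and -1. Open triangles give the median difference between the tables at the 8-cell stage over the members at level there; the numbers in brackets are the genes compared and the genes at level at both stages.

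Outside the lists, the largest differences by size fell on genes of several kinds. The 15 largest increases included 2 lens crystallins, Crygc (49.7 against 1.54, 1.3 and 0) and Crygd (55.1 against 2.12, 1.62 and 1.24). Ube2l6, the conjugating enzyme of the ubiquitin-like protein ISG15, had 127 against 6.68, 2.71 and 5.54, and Ifitm3, an interferon-induced membrane protein, 36.4 against 1.67, 0.761 and 0, with 8-cell differences of 1.23 and -1.0. Spic, an Ets-family factor, was 115 against 2.9, 18.7 and 2.22 with an 8-cell difference of 1.0. Ephx2, an epoxide hydrolase, was 56 against 1.52, 3.14 and 1.6, and the aldo-keto reductase gene Akr1c21 41.6 against 0.389, 1.1 and 0. Ptma and Zbed5 were also in this group, and their 8-cell differences of 2.52 and 4.97 were of the same sign.

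The 15 largest decreases were led by Dmkn, a secreted epidermal protein, at 0.374 in the ICM and 35.2, 179 and 284 in the controls. Klk7, a secreted serine protease, had 0.0268 against 48.3, 62.7 and 78.1. The iron exporter gene Slc40a1 had 0.245 against 7.88, 34.5 and 139. For Dmkn and Slc40a1 the controls differed several-fold, with control 3 the highest, yet the ICM was below the lowest of them. Lgals1, the galactose-binding lectin galectin 1, was 36.4 against 3546, 3335 and 5505, and its 8-cell difference was -5.33 of a difference of -6.79. Actb, beta-actin, which is often taken as a constant reference, was lower at 908 against 5468, 3411 and 4160 with an 8-cell difference of -2.00.

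Levels in the stage table's other columns were read for both groups of genes. On the scale of the ICM column, 76.3% of the genes higher in the ICM reached 5 scaled FPKM in R1 mouse embryonic stem cells, a line derived from a blastocyst, against 67.6% of all compared genes and 41.6% of genes lower in the ICM. At the 8-cell stage the shares were 70.3%, 68.1% and 45.5%. Genes lower in the ICM had a median of 3.82 there, 18.2 in the controls, 3.93 in 8-cell embryos and 3.49 in stem cells. These columns share the stage table with the ICM column, so a difference between the tables enters all of them. By the rule of the call, every gene called higher had at least 5 scaled FPKM in the ICM. Genes called lower reached that level in the mean of the controls, from the other table. Part of the gap between the shares thus follows from how the genes were selected, and the size of that part was not tested.

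The 738 genes set aside for near-identical copies behaved unlike the rest. Of these 484 were higher in the ICM and 46 lower, with a median difference of 1.68, and their median difference at the 8-cell stage was 1.09. Cytosolic ribosomal protein genes made up a visible share: 75 of the 79 matched were set aside. Of the remaining 4, Rpl8 had 490 in the ICM against 737 to 900 in the controls, with an 8-cell difference of -1.41. How reads matching several copies were counted in each table is not given in the sources used here. Apart from their part in the sums of lineage markers, no level is drawn from these genes.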

How the data were processed

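FPKM values were deposited by the authors in 3 tables: 1 with a pooled column per stage (24013 genes) and 2 with a column per knockdown library (22536 genes in the blastocyst table). Per the submitters' processing notes, CASAVA 1.8 called the bases and STAR 2.4.0 aligned the reads to mm9, and Cufflinks 2.2.1 is named for the ICM, stage 8-cell and blastocyst samples; no tool is named for the 8-cell knockdown values. How the ICM samples were pooled, and the read totals, are not given in the sources used here. Single-fragment steps in the low FPKM placed control 1 at 1.05 times the depth of control 3 (213 genes); the ICM and control 2 could not be placed.

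Groups follow the labels, and no column of values was left out. Tables were joined by symbol, Rn45s was dropped, and the 4 columns were scaled to a common median over the 6839 genes with at least 1 FPKM in each. Copies were found by aligning GENCODE M21 coding sequences to all transcripts with minimap2 2.31. Tables were handled with pandas 2.3.3 in Python 3.11.15, and the scaling and calls were tested on simulated data. Named are the 15 most increased and 15 most decreased genes that are not unnamed loci, 25 lineage genes, up to 6 largest differences per gene list, and list members as examples. Genes, lists and the comparison were chosen with earlier results of these data known, so no count is independent support. A few genes that this rule would name are not reported here.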

Additional observations from a re-analysis of the deposited data

How the results depend on the processing

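The counts of 1049 genes higher and 1386 lower came to 2021 and 828 without scaling, to 236 and 603 at a difference of at least 2, and the count higher to 635 with a pseudocount of 5. Leaving out each control in turn gave 1003 to 1115 higher and 1350 to 1458 lower. List medians kept their sign under each alternative for the 7 lineage lists, and their values moved with the setting, for reasons that were not tested except where fewer genes or libraries entered.

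Without scaling the medians were -2.73 (trophectoderm surface, secreted and enzyme genes), -2.61 (keratins and desmosome), -1.50 (junctions and polarity), -1.13 (blastocoel transport), 2.33 (epiblast) and 1.47 (primitive endoderm). With a pseudocount of 5 they were, in the same order, -2.30, -1.65, -1.30, -1.28, 1.5 and 0.76, with -1.33 for trophectoderm transcription factors. With a pseudocount of 0.1 they were -3.82 for surface genes, -3.96 for keratins and -2.90 for transcription factors. With no filter on low values surface genes had -2.53, keratins -2.19, junctions -1.49, transport -0.79 and primitive endoderm 0.11, and at 1 FPKM or more surface genes -3.11, keratins -2.47, junctions -1.49 and primitive endoderm 0.23. At 10 FPKM or more surface genes had -3.50, keratins -4.18, transcription factors -3.00 and epiblast 2.34. Upper quartile scaling gave surface genes -3.41.

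Against control 1 alone the medians were -3.43 for surface genes, -2.69 for keratins and 1.03 for primitive endoderm, against control 2 alone -3.15, -3.21 and, for junctions, -1.32. Against control 3 alone they were -2.65 for keratins, -2.29 for transport, -3.11 for transcription factors, 2.49 for epiblast and 0.26 for primitive endoderm. Leaving out each control in turn gave -2.64 to -2.46 for transcription factors, -3.41 to -3.20 for surface genes, -2.96 to -2.81 for keratins, -1.97 to -1.84 for junctions, -1.92 to -1.33 for transport, 1.77 to 2.14 for epiblast and 0.53 to 1.35 for primitive endoderm.

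With genes that differ between the tables at the 8-cell stage also set aside, junctions had -1.25 and epiblast 2.37. Subtracting each gene's 8-cell difference, chosen after seeing the data and possible for 4015 genes, gave 696 higher and 491 lower, of which 358 and 338 were called so before. Of these 4015 genes, 762 had been called higher (19%) and 850 lower (21.2%), against 17.3% and 12.2% after the subtraction. Medians over the members at level at both stages were then -0.95 for transcription factors, -1.24 for junctions, 1.29 for epiblast and 0.31 for primitive endoderm. Of 80 named genes called before and at level at both stages, 53 had the same call after the subtraction, 20 lost it with the same sign, among them Tead4, Klf4, Esrrb, Uqcrq, Snrpn and Actb, and 7 changed sign. These were Zbed5 (-0.78), Aqp3 (0.27), Eif1a (-0.42), Pnpla2 (0.18), Dgat1 (0.57), Zfp57 (-0.59) and Pim3, which was lower before and higher after (1.22). Klf5 and Cox8a, examples from their lists, also lost their call with the same sign.

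The median of the Nodal, activin and BMP list changed sign without scaling (0.60), with no filter (0.07) and at 10 FPKM or more (0.03). Under the alternatives other than the subtraction, none of the 175 named genes changed sign where it was called. No paired analysis was possible because the ICM has 1 pooled column and so carries no replicate numbers. Depth is unknown, and 1 ICM column allows no error.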

Other observations

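The shortest coding sequences had the lowest median difference in both comparisons. In the shortest of 5 equal groups by coding length (138 to 654 bases, 1028 genes) the median difference between ICM and controls was -0.36, with 343 genes lower and 171 higher. In the next group it was -0.13, and in the 3 longest it lay between -0.01 and 0.03, with 23.6% to 25.9% of genes lower against 33.4% in the shortest. At the 8-cell stage the medians from the shortest to the longest group were -0.40, -0.19, -0.06, -0.13 and -0.06. The part of coding length in the results was not tested.

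The lists not described above gave few compared genes. No cumulus and granulosa gene of 15 reached the level compared. Of the oocyte and maternal list 3 genes did and 2 were higher, Ooep (62 against 24.8, 35.5 and 16.8) and the zona pellucida gene Zp3 (6.69 against 1.11, 0.115 and 0.498). Of the 2-cell list only Eif1a was compared, and it was higher (94 against 35.9 to 51.3, 8-cell difference 1.59). Both complement regulators compared, Cd59a and Serping1, were higher, with an 8-cell difference of 1.07 for Serping1, and neither was called once the 8-cell difference was subtracted (0.95 and 0.91). Cholesterol synthesis had 4 of 11 lower and none higher, and lipid handling 4 of 17 lower and none higher, with 8-cell medians of -0.61 and -0.73 over the members at level there. Over all compared genes 26.6% were lower and 20.1% higher, which also holds for the counts that follow. Of 12 housekeeping genes 2 were higher and 2 lower, and of 5 imprinted genes Snrpn was higher (76.9 against 16.1, 17.5 and 8.41, 8-cell difference 2.09).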
